A study of Mus musculus with 4 samples.

Results

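A set of 10 genes that mark cerebellar astrocytes and Bergmann glia was followed in bulk RNA-seq of the mouse cerebellum. They were taken by their NCBI gene number from the StringTie table of each library, and all 10 were found among the 24532 gene identifiers. The 10 genes are *Aqp4*, *Kcnj10*, *Gfap*, *Slc1a2*, *Slc1a3*, *Gdf10*, *Hopx*, *S100b*, *Gja1* and *Glul*. Each had only 1 entry per table.

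RNA came from granule-cell-enriched tissue, cut by hand from slices of the cerebellar vermis. The groups were 2 wild-type (WT) mice and 2 heterozygous *Kdm3b* mice (*Kdm3b*+/-), with 1 library per mouse. The mutant mice carry a gene-trap vector in 1 allele of *Kdm3b*, which encodes a histone H3K9 demethylase, and derive from a single targeted ES cell line. Per the study's methods, the mice of the study were adult males, the WT mice were littermates, and the line had been backcrossed to C57Bl/6N and then crossed to C57Bl/6J. The allele is present in every cell, so a difference in glia cannot be assigned to glia or to the neurons around them. In bulk RNA, fewer cells of a type and less RNA per cell cannot be told apart.

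Astrocytes clear glutamate and potassium from the space around synapses, couple to one another through gap junctions, and control water at their endfeet on blood vessels. Bergmann glia are the radial astrocytes of the cerebellar cortex: their cell bodies lie in the Purkinje cell layer and their processes run through the molecular layer to the pia. They are known for wrapping parallel fibre synapses and for high glutamate uptake. Velate astrocytes fill the granule cell layer.

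*Kdm3b* itself was read first. It had 9.10 and 11.0 TPM (transcript abundance scaled to gene length and library total) in WT mice 1 and 2, against 8.30 and 7.90 in *Kdm3b*+/- mice 1 and 2. Its log2 fold change was −0.27 (SE 0.17, adjusted p = 0.424, limma). For the protein, a different measure, the study reports significantly less KDM3B in the vermis and flocculus of *Kdm3b*+/- mice. The libraries held 4.92 to 6.69 gigabases of aligned sequence. Markers of the granule cell were present in every library, with a summed TPM of 5399.9 to 6371 over 14 genes. Purkinje cell markers were present too, and 1 library stood apart in them: over 16 genes their summed TPM was 2087 in WT mouse 1, 896 in WT mouse 2, 1168 in *Kdm3b*+/- mouse 1 and 972 in *Kdm3b*+/- mouse 2. Values without this library are given beside many of the results.

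The glial genes lay on both sides of 0. Of the 10 genes, 3 (*Aqp4*, *Kcnj10* and *Hopx*) had a higher TPM in both *Kdm3b*+/- mice than in both WT mice, 4 (*Gja1*, *Glul*, *Slc1a3* and *Gdf10*) had a lower TPM in both, and 3 (*Slc1a2*, *Gfap* and *S100b*) overlapped. Over the 13652 genes whose mean TPM reached 1, the same patterns held for 19.2% (higher) and 32.0% (lower). The smallest p that an exact permutation test of 2 mice against 2 can give is 0.333, so the test was a limma fit across all these genes on log2(TPM + 1), which understates the change of genes with low values. A gene was called where the Benjamini-Hochberg adjusted p lay under 0.05 and the fold exceeded 1.2. By this rule *Aqp4* rose and no member fell, where 0.461% of all genes were called, 0.117% higher and 0.344% lower. At an unadjusted p under 0.05, 3 members were higher and 2 lower, where all genes gave 5.47% and 11.5%. Over the 10 genes the median log2 fold change lay at −0.10, against −0.07 for all tested genes. Without *Kdm3b*+/- mouse 1 the median of the 10 genes turned to 0.16, and with each of the other libraries left out it ran from −0.15 to −0.04. It was −0.0018 with length and GC effects taken out. Other scalings moved the median of all genes by at most 0.0752.

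**Figure D1:**
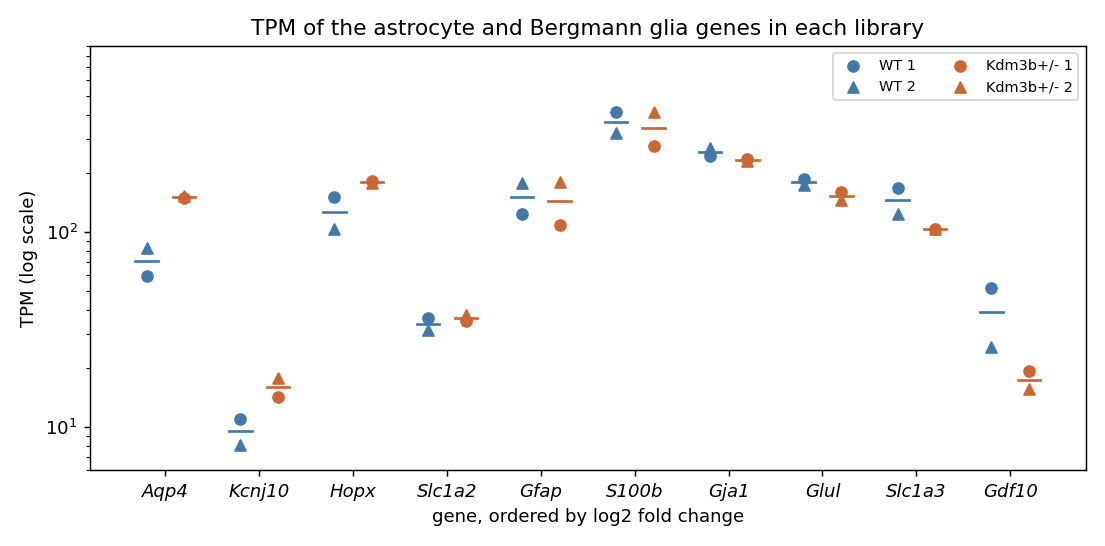
TPM of the 10 genes (log axis) in each library, ordered by log2 fold change, with blue for WT, orange for *Kdm3b*+/-, circles for mouse 1, triangles for mouse 2 and a bar for the mean of each group. *Aqp4*, *Kcnj10* and *Hopx* have both orange points above both blue points, and *Gja1*, *Glul*, *Slc1a3* and *Gdf10* have them below.

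*Aqp4* encodes aquaporin-4, the water channel of astrocyte endfeet. It lies on the reverse strand of chromosome 18, from 15389394 to 15410982. Its level was 59.2 and 82.3 TPM in WT mice 1 and 2 and 150.0 and 152 TPM in *Kdm3b*+/- mice 1 and 2. The mutant mice were nearly equal, and both stood far above the higher WT mouse. The group means were 70.8 ± 16.4 and 151 ± 1.49 TPM (SD, n = 2 each), a ratio of 2.13. The log2 fold change was 1.10 (SE 0.17, adjusted p = 0.0329, limma). With each library left out in turn it stayed between 0.87 and 1.34. Among the alternatives, the adjusted p alone could not lose a call, and taking 1 entry per identifier left the values of *Aqp4* unchanged. With these counted, the call was kept in 15 of 19 alternatives. It was lost without WT mouse 1 (0.87, adjusted p = 0.0723), without a filter on low TPM (adjusted p = 0.240), without a trend in eBayes (0.0802) and from coverage per gigabase of depth in place of TPM (1.11, adjusted p = 0.0697), an alternative chosen after seeing the data.

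*Aqp4* and *Kdm3b* are on the same chromosome, and their starts are 19.4 Mb apart. The 3 other tested genes whose start lies within 1 Mb of that of *Aqp4*, named after their values were seen, were *Taf4b*, *Kctd1* and *Ss18*. Their groups overlapped, and none was called; their log2 fold changes were −0.03, −0.07 and −0.14.

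*Kcnj10* encodes Kir4.1, the inward rectifier that carries potassium buffering in astrocytes. It lies on the forward strand of chromosome 1, from 172341210 to 172374085, and had the lowest level of the 10 genes. It was listed at 10.9 and 8.07 TPM in the WT mice, against 14.3 and 17.8 TPM in the mutant mice. The groups did not overlap, and the gap between them was about as wide as the gap between mice of a genotype. The log2 fold change was 0.70 (SE 0.19, adjusted p = 0.158), and it ran from 0.51 without WT mouse 2 to 0.90 without WT mouse 1. No alternative gave a call. By its own test of counts, the study lists *Kcnj10* among its differentially expressed genes. The gene next to it, *Kcnj9*, encodes an inward rectifier of neurons and lies on the reverse strand. Its 5′ end is 11.9 kb from the start of *Kcnj10*, and the genes point away from each other. *Kcnj9* had 131 and 169 TPM in the WT mice and 113 and 122 TPM in the mutant mice. These neighbours thus differed in sign (*Kcnj9* log2 fold change −0.34, adjusted p = 0.307).

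*Hopx* encodes a homeodomain-only protein of radial glia, Bergmann glia among them. It lies on the reverse strand of chromosome 5, from 77086986 to 77115123. Its level was 151 and 103 TPM in the WT mice and 183 and 179 TPM in the *Kdm3b*+/- mice. The gap between the WT mice was wider than that between WT mouse 1 and either mutant mouse. The log2 fold change was 0.53 (SE 0.18, adjusted p = 0.213). It was 0.80 without WT mouse 1 and 0.26 without WT mouse 2, and 0.35 once length and GC effects were taken out of every library.

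At the other end, *Gdf10* encodes a TGF-beta family ligand (BMP3b) that is a marker of Bergmann glia in the adult cerebellum. It lies on the forward strand of chromosome 14, from 33923587 to 33936514. It was listed at 51.7 and 25.7 TPM in WT mice 1 and 2 and at 19.4 and 15.6 TPM in *Kdm3b*+/- mice 1 and 2. WT mouse 1, the library with the highest Purkinje cell markers, was 2.01 times WT mouse 2, the widest gap between mice of a genotype among the 10 genes. The group means were 38.7 ± 18.4 and 17.5 ± 2.68 TPM (SD, n = 2 each). The log2 fold change was −1.03 (SE 0.28, adjusted p = 0.157), with a larger error than that of *Aqp4*. Without WT mouse 1 it was −0.54 (adjusted p = 0.140). It was called lower without WT mouse 2 (−1.52, adjusted p = 0.0436) and without *Kdm3b*+/- mouse 1 (−1.18, adjusted p = 0.0397).

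The glutamate transporters of glia lay apart. *Slc1a3* encodes GLAST, the main transporter of Bergmann glia, and lies on the reverse strand of chromosome 15, from 8634124 to 8710807. Its level was 169 and 124 TPM in the WT mice, and 104 TPM in each *Kdm3b*+/- mouse. WT mouse 1 was again the highest library. The log2 fold change was −0.47 (SE 0.16, adjusted p = 0.216), −0.25 without WT mouse 1 and −0.69 without WT mouse 2. *Slc1a2* encodes GLT-1, the other astrocytic transporter (chromosome 2, forward strand, 102658683 to 102790784). It was at 36.2 and 31.3 TPM in the WT mice and 34.9 and 37.4 TPM in the mutant mice. The groups overlapped, with a log2 fold change of 0.10 (SE 0.15, adjusted p = 0.763), which became −0.0041 without WT mouse 2 and 0.20 without WT mouse 1.

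The order of *Gdf10* and *Slc1a3* levels over the libraries was partly that of the Purkinje cell markers: WT mouse 1 was highest in all of these. In the other libraries the orders differed, since WT mouse 2 had the lowest summed Purkinje marker level but the second highest *Gdf10* and *Slc1a3*. Of the 15 Purkinje markers that were tested, 7 were lower in both mutant mice, a pattern of 32.0% of all tested genes, and 8 overlapped. None was called, 6 had an unadjusted p under 0.05, and the median log2 fold change was −0.49. Without WT mouse 1 this median was −0.10, and without WT mouse 2 it was −0.88. The part of Purkinje layer tissue in the *Gdf10* and *Slc1a3* values was not tested.

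Of the remaining genes whose groups did not overlap, *Glul* encodes glutamine synthetase, which turns the glutamate taken up into glutamine (chromosome 1, forward strand, 153899929 to 153909723). It was at 187 and 174 TPM in the WT mice and 159.7 and 145 TPM in the mutant mice, with a log2 fold change of −0.24 (SE 0.13, adjusted p = 0.370). It overlaps the microRNA gene *Mir8114*, whose mean TPM was 0.476. *Gja1* encodes connexin 43, the main gap junction protein of astrocytes (chromosome 10, forward strand, 56377300 to 56390419). It was at 245 and 270.4 TPM in the WT mice and at 236 and 230.2 TPM in the mutant mice. The groups of both genes are set apart by small gaps, and the log2 fold change of *Gja1* was −0.14 (SE 0.12, adjusted p = 0.584).

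*Gfap* and *S100b* varied more within a genotype than between genotypes. *Gfap* encodes the intermediate filament that builds up in reactive astrocytes (chromosome 11, reverse strand, 102887336 to 102897200). It was at 123 and 178 TPM in the WT mice and at 109 and 179.9 TPM in the mutant mice, so that both mice numbered 1 were low and both mice numbered 2 were high. Its log2 fold change was −0.08 (SE 0.24, adjusted p = 0.887) and changed sign to 0.07 with length and GC effects taken out. It was −0.35 and 0.18 without WT mice 1 and 2, and 0.28 and −0.44 without *Kdm3b*+/- mice 1 and 2. *S100b* encodes a calcium-binding protein of astrocytes that oligodendrocytes make as well (chromosome 10, forward strand, 76253836 to 76261319). Its level was 412 and 322 TPM in the WT mice and 275 and 412 TPM in the mutant mice. WT mouse 1 and *Kdm3b*+/- mouse 2 were level with each other, and *Kdm3b*+/- mouse 1 was the lowest.

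The summed TPM of 14 oligodendrocyte markers ran from 15335 in *Kdm3b*+/- mouse 1 through 16589 and 18119 in WT mice 2 and 1 to 18343 in *Kdm3b*+/- mouse 2, the same order of libraries as for *S100b*. The log2 fold change of *S100b* was −0.11 (SE 0.20, adjusted p = 0.795), and it ran from −0.40 without *Kdm3b*+/- mouse 2 to 0.18 without *Kdm3b*+/- mouse 1, with 0.06 without WT mouse 1 and −0.29 without WT mouse 2. The part of oligodendrocyte RNA in these values was not tested.

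**Figure D2:**
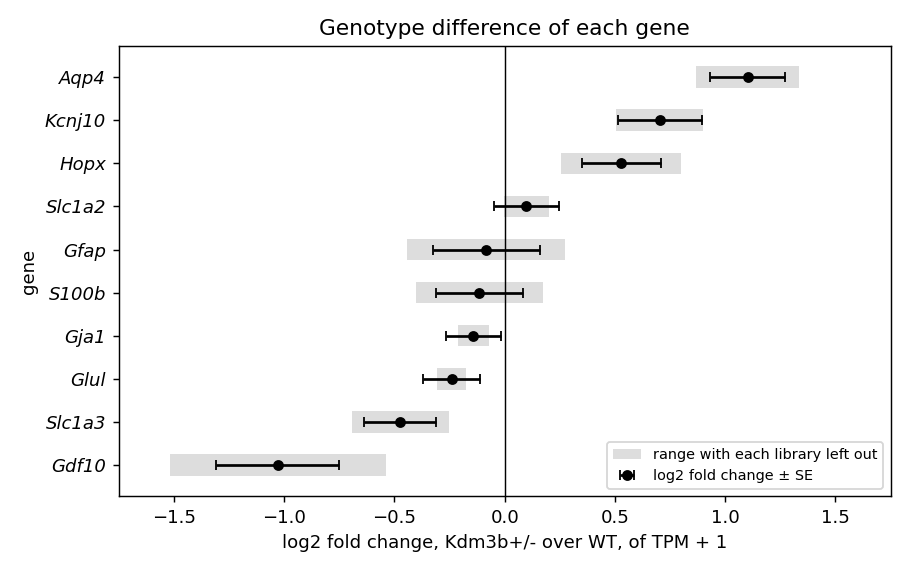
Log2 fold change of TPM + 1 (*Kdm3b*+/- over WT, x axis) of each gene, with bars for the standard error and grey bands for the range with each library left out in turn. The bands of *Aqp4* (0.87 to 1.34), *Kcnj10* (0.51 to 0.90), *Hopx* (0.26 to 0.80), *Slc1a3* (−0.69 to −0.25) and *Gdf10* (−1.52 to −0.54) stay on 1 side of 0, as do the narrow bands of *Gja1* and *Glul*, while those of *Slc1a2*, *Gfap* and *S100b* cross it.

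From a table of RefSeq promoters, windows were taken for 9 of the 10 genes. *Aqp4* was left out of this step by choice, so its promoter was not examined. The windows of 2 genes from each end are shown, since the log2 fold changes of the 2 ends had opposite signs. None of these genes was called in the main fit. The sequences are the 250 bases before the RefSeq start on GRCm38.p6, written 5′ to 3′ on the strand of the gene, and the start matches that of the deposited tables. Capitals mark matches on either strand to any of the motifs named STAT (TTCNNNGAA), nuclear factor I core (TTGGC), SOX core (ACAAT), AP-1 (TGANTCA), E-box (CACGTG), GC box (GGGCGG) and TATA box (TATAAA), and matches that overlap run together.
Kcnj10, chr1:172340960-172341209, forward strand: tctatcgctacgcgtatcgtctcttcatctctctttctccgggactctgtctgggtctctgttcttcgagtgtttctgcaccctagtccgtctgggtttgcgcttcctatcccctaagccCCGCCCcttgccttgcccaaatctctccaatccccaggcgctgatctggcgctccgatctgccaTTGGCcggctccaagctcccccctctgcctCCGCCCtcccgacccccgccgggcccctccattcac
Hopx, chr5:77115124-77115373, reverse strand: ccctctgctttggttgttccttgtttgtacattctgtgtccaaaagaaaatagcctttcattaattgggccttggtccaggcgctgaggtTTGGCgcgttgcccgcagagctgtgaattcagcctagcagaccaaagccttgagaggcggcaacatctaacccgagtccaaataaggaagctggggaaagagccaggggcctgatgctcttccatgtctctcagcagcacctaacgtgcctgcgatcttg
Gdf10, chr14:33923337-33923586, forward strand: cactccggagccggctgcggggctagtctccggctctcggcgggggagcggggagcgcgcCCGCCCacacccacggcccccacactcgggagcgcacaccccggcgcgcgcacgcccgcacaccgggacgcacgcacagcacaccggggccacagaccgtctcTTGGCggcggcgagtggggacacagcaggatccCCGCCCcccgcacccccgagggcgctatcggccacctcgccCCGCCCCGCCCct
Slc1a3, chr15:8710808-8711057, reverse strand: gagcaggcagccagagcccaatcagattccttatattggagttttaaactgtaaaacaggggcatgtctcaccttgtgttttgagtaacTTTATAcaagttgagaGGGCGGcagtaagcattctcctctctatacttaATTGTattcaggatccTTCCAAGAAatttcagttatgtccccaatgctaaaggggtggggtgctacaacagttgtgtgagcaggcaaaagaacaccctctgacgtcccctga

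The nuclear factor I core was matched once each in the *Kcnj10*, *Hopx* and *Gdf10* windows and not in that of *Slc1a3*, and 41.5% of the 32851 promoter windows of the table hold it. GC boxes were matched 2 times in *Kcnj10*, 4 times in *Gdf10* and once in *Slc1a3* (32.7% of windows). The *Slc1a3* window alone of these 4 held matches to the STAT motif (7.02% of windows), the SOX core (27.7%) and the TATA box (12.4%), 1 of each. AP-1 and E-box letters (6.75% and 6.02% of windows) were in none of the 4. The GC content was 62.0% for *Kcnj10*, 52.4% for *Hopx*, 78.8% for *Gdf10* and 44.8% for *Slc1a3*. A match is a string of letters and does not show that a factor binds there. Of the genes between these ends, the *S100b* window held 3 nuclear factor I cores, that of *Gja1* held 1 AP-1 match, and that of *Gfap* held no match to any motif. The *Glul* window held 2 nuclear factor I cores and 1 GC box. That of *Slc1a2*, whose RefSeq start is not the deposited one, held 1 nuclear factor I core. *Hopx* has a further RefSeq start inside the gene, whose window is not shown.

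Since TPM is scaled to gene length, the genes can be ordered by level. In the WT mice the order of mean TPM was *S100b* (367), *Gja1* (258), *Glul* (180.3), *Gfap* (151), *Slc1a3* (147), *Hopx* (127), *Aqp4* (70.8), *Gdf10* (38.7), *Slc1a2* (33.8) and *Kcnj10* (9.50). Neighbours from *Glul* to *Hopx* overlapped in their single values, as did *Gdf10* and *Slc1a2*. In the *Kdm3b*+/- mice *Hopx* (181) had a higher mean than *Glul* (152), *Aqp4* (151) and *Gfap* (144). The last 3 overlapped in their single values, *Gfap* overlapped *Hopx* as well, and *Slc1a3* (104) had moved below *Aqp4*. *Slc1a2* (36.1) stood above *Gdf10* (17.5), whose values no longer overlapped with it but did with those of *Kcnj10* (16.0). The summed TPM of the 10 genes was 1382 ± 87.9 for WT and 1379 ± 133 for *Kdm3b*+/- mice (SD, n = 2 each), so the total was level while its makeup differed. *Aqp4* held 4.10% and 6.24% of this sum in the WT mice, against 11.7% and 10.3% for the mutant mice. *Slc1a3* held 11.7% and 9.41%, against 8.10% and 7.06%.

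Ratios between genes within a library do not depend on a factor that scales the whole library. Effects of length and GC need not cancel in them. With these effects taken out, the log2 fold change of *Hopx* went from 0.53 to 0.35 and that of *Slc1a3* from −0.47 to −0.36. That of *Kcnj10* went from 0.70 to 0.83 and that of *Aqp4* from 1.10 to 1.15. The pairs given here were chosen after the values had been seen and are a description. *Aqp4*, *Kcnj10* and *Hopx* were higher and *Slc1a3* lower in both mutant mice, so their ratios to *Slc1a3* could not overlap. The ratio of *Kcnj10* to *Slc1a3* was 0.0647 and 0.0649 for WT mice 1 and 2, against 0.137 and 0.171 for *Kdm3b*+/- mice 1 and 2. WT mouse 1 and WT mouse 2 were thus alike in this ratio, though they differed in each gene alone. The ratio of *Hopx* to *Slc1a3* was 0.896 and 0.832, against 1.76 and 1.72. The ratio of *Aqp4* to *Slc1a3* was 0.350 and 0.662, against 1.44 and 1.46, a log2 difference of 1.59 between the genotypes. For the transporters, the ratio of *Slc1a2* to *Slc1a3* was 0.214 and 0.252, against 0.335 and 0.359. The ratio of *Glul* to *Slc1a3* overlapped, at 1.10 and 1.40 against 1.53 and 1.40. The ratio of *Aqp4* to *Kcnj10* overlapped as well (5.41 and 10.2 against 10.5 and 8.56).

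**Figure D3:**
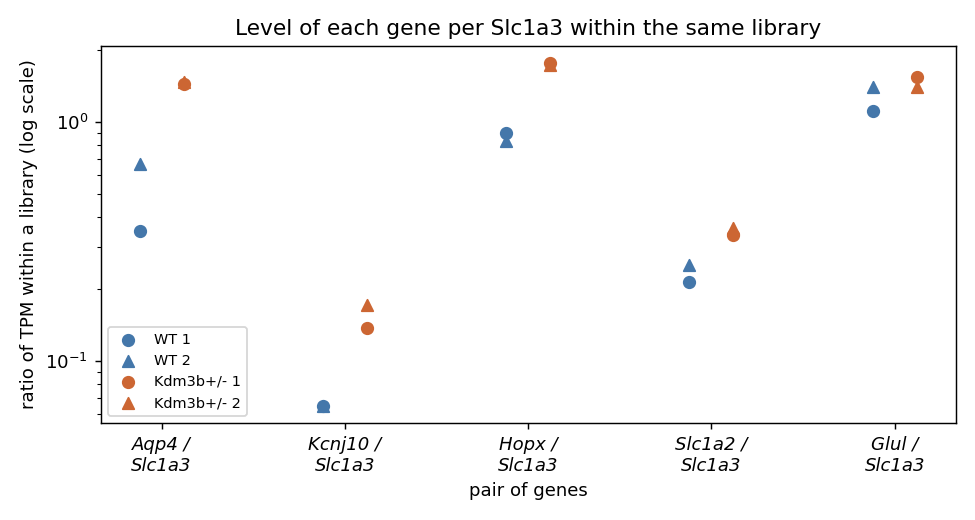
TPM of *Aqp4*, *Kcnj10*, *Hopx*, *Slc1a2* and *Glul* divided by that of *Slc1a3* in the same library (log axis), with blue for WT, orange for *Kdm3b*+/-, circles for mouse 1 and triangles for mouse 2. Both mutant libraries lie above both WT libraries for each pair but *Glul* to *Slc1a3*. For *Aqp4*, *Kcnj10* and *Hopx* this follows from the single genes, since *Slc1a3* was lower in both mutant mice.

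None of the partners of aquaporin-4 was called with it. Of 10 tested genes for its anchoring complex and for endfeet, none was called in either direction and 1 had an unadjusted p under 0.05. The median log2 fold change was −0.15, and 5 were lower and 1 higher in both mutant mice. By these patterns all tested genes gave 32.0% and 19.2%, and their median was −0.07. At an unadjusted p under 0.05 they gave 5.47% higher and 11.5% lower. The same shares stand beside the counts of the lists below. With each library left out the median of the list ran from −0.26 (without *Kdm3b*+/- mouse 2) to −0.06 (without WT mouse 2). *Mlc1*, a membrane protein of endfeet and the most abundant gene of the list, was at 265 and 259 TPM in the WT mice and 182 and 233 TPM in the mutant mice (log2 fold change −0.35, adjusted p = 0.278, and −0.17 without *Kdm3b*+/- mouse 1). The ends of the list were *Dmd*, which encodes dystrophin (0.34, adjusted p = 0.374, and 0.12 without *Kdm3b*+/- mouse 1), and the cation channel gene *Trpv4* (−0.42, adjusted p = 0.357, and −0.22 without WT mouse 2). *Trpv4* had 1.03 and 1.65 TPM in the WT mice and 0.648 and 0.834 TPM in the mutant mice. With a mean TPM of 1.04 it passed the filter only through the WT mice, and it is counted among the 5 lower genes.

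Among 12 genes of glutamate and glutamine handling, none was called, 3 had an unadjusted p under 0.05 and the median was 0.12. Of these, 5 were higher and 1 lower in both mutant mice. The highest log2 fold change was that of *Slc38a5*, which encodes a glutamine transporter of glia, with 6.04 and 4.76 TPM in the WT mice and 9.47 and 11.0 TPM in the mutant mice (0.81, adjusted p = 0.109). The lowest was that of *Pcx*, which encodes pyruvate carboxylase (−0.33, adjusted p = 0.387). *Glud1*, for glutamate dehydrogenase, was the most abundant, with 108 to 115 TPM in the 4 libraries.

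None of 10 tested genes of potassium and sodium handling was called or had an unadjusted p under 0.05, and 8 of them overlapped. Their median was −0.03, and −0.18 without WT mouse 1. *Kcnk1*, which encodes a background potassium channel, was the most abundant (610.5 to 757 TPM), and *Slc4a4*, the sodium bicarbonate cotransporter gene of astrocytes, had the highest log2 fold change (0.28, adjusted p = 0.341). *Kcnj9*, above, had the lowest.

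Of 7 other connexin genes none was called, 2 had an unadjusted p under 0.05, 4 were lower in both mutant mice and the median was −0.18. *Gjb6* encodes connexin 30, which astrocytes make beside connexin 43, and was at 267 and 257 TPM in the WT mice and 191 and 158 TPM in the mutant mice. Its groups were well apart, but the log2 fold change of −0.59 was not called (SE 0.14, adjusted p = 0.125).

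Of 29 other astrocyte markers, 3 were called lower, none was called higher, and 11 had an unadjusted p under 0.05. By pattern, 13 were lower and 3 higher in both mutant mice, and the median was −0.18, or −0.11 without WT mouse 1 and −0.31 without WT mouse 2. Among all tested genes, 32.0% were lower and 19.2% higher in both, with a median of −0.07. *Ndrg2*, a marker of mature astrocytes, fell from 1658 and 1462 TPM in the WT mice to 919.9 and 958 TPM in the mutant mice (log2 fold change −0.73, SE 0.12, adjusted p = 0.0381). *Ptgds*, which encodes a prostaglandin D synthase that meninges and oligodendrocytes make too, fell from 1847 and 1663 TPM to 990.1 and 999 TPM (−0.82, SE 0.11, adjusted p = 0.0239). The call of *Ndrg2* was kept in 11 and that of *Ptgds* in 12 of 19 alternatives. Both were lost without WT mouse 1 (*Ndrg2* −0.64, adjusted p = 0.0873, and *Ptgds* −0.74, adjusted p = 0.0867), without WT mouse 2 (−0.82, adjusted p = 0.112, and −0.89, adjusted p = 0.0918), and with FPKM, no filter on low TPM, median-ratio scaling, eBayes without trend and coverage per gigabase. That of *Ndrg2* was lost in 1 further fit, with the length and GC correction and a block together. Both were kept with either mutant mouse left out.

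The lowest log2 fold change of these markers was that of *Fgfr3*, an FGF receptor gene of astrocytes, with 26.6 and 33.7 TPM against 16.0 and 15.5 TPM (−0.89, SE 0.16, adjusted p = 0.0641). The highest was that of the neurotensin receptor gene *Ntsr2* (0.36, adjusted p = 0.250). In the study's own test of counts, *Fgfr3* is listed among the genes that were lower. *Apoe*, for the lipid carrier that astrocytes secrete, was the most abundant, with 5413 to 5957 TPM in the 4 libraries and a log2 fold change of 0.03.

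Of 19 tested Bergmann glia markers beyond the 10 genes, 1 was called higher, none was called lower, 4 had an unadjusted p under 0.05 and the median was −0.07, or 0.03 without WT mouse 1. By pattern, 5 were higher and 4 lower in both mutant mice, where all tested genes gave 19.2% and 32.0%. The gene that rose was *Fabp7*, the brain fatty acid binding protein of radial and Bergmann glia, from 16.5 and 16.2 TPM in the WT mice to 40.5 and 56.4 TPM in the mutant mice (log2 fold change 1.49, SE 0.18, adjusted p = 0.0133). Its call was kept in 16 of 19 alternatives and lost without WT mouse 1 (1.51, adjusted p = 0.0694), without WT mouse 2 (1.48, adjusted p = 0.0795) and without a filter on low TPM. *Septin4*, the most abundant, overlapped (934 to 1182 TPM). The lowest log2 fold change was that of *Ptch1*, which encodes the hedgehog receptor, and it rests on 1 library: the WT mice had 13.4 and 15.4 TPM against 15.9 and 1.48 TPM for the mutant mice, and the log2 fold change of −1.25 (adjusted p = 0.369) became 0.13 without *Kdm3b*+/- mouse 2 and −2.63 without *Kdm3b*+/- mouse 1, which was called (adjusted p = 5.18e-08).

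Genes of reactive astrocytes lay on both sides of 0. Of 14 tested genes none was called, and 6 had an unadjusted p under 0.05. In both mutant mice 3 were higher and 6 lower, where all tested genes gave 19.2% and 32.0%. The median of the list was −0.09. It turned to 0.17 with FPKM, where 12 of the genes passed the filter, and to 0.14 at a mean TPM of at least 5, which 10 passed. *S100a10* had the highest log2 fold change, with 33.4 and 21.7 TPM in the WT mice and 43.6 and 52.2 TPM in the mutant mice (0.80, adjusted p = 0.147). It was 0.50 without WT mouse 2, and the gene was called in 1 of 19 alternatives. *Lcn2*, which encodes lipocalin 2, had the lowest, with 1.87 and 1.61 TPM against 0.358 and 0.190 TPM. Its log2 fold change was −1.11 (adjusted p = 0.0641), and −1.20 without *Kdm3b*+/- mouse 1. The mean TPM of *Lcn2*, 1.01, lay near the filter, which the gene passed only through the WT mice. Its place as the lowest thus depends on the filter. It is counted above among the lower genes and among those with an unadjusted p under 0.05. The most abundant gene, *H2-D1* of MHC class I, was at 451 and 399 TPM against 342 and 358 TPM (−0.28, adjusted p = 0.298).

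**Figure D4:**
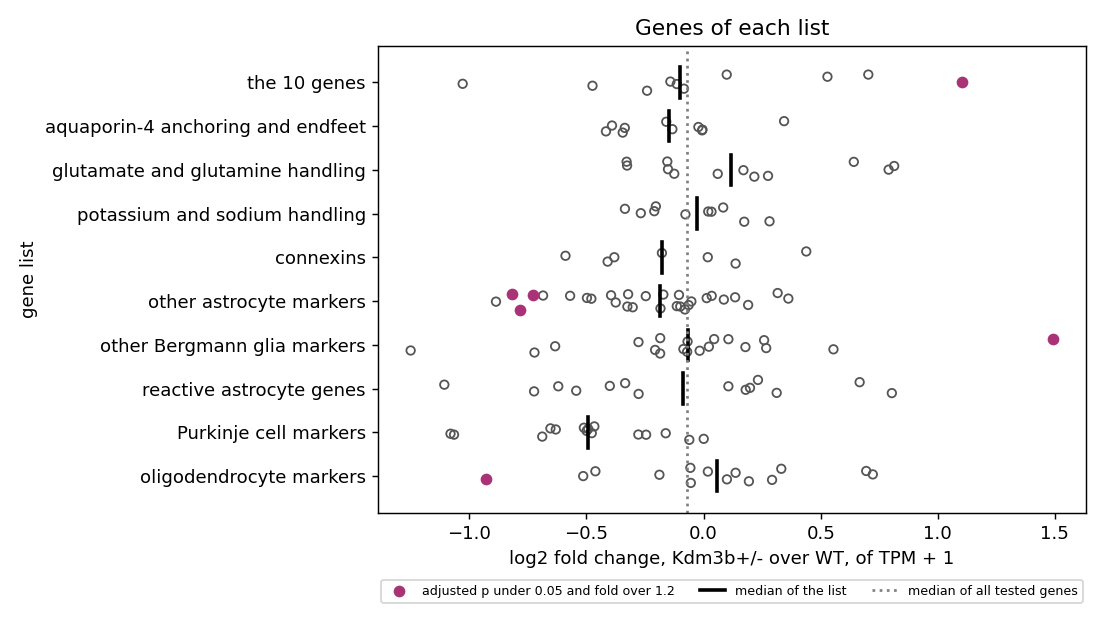
Log2 fold change of TPM + 1 (*Kdm3b*+/- over WT, x axis) of each tested gene by list, with filled points for called genes, black bars for the median of a list and a dotted line for the median of all tested genes (−0.07). Called genes are *Aqp4* among the 10 genes, 3 lower astrocyte markers, *Fabp7* among Bergmann glia markers and 1 lower oligodendrocyte marker, and the Purkinje cell markers have a median of −0.49, which was −0.10 without WT mouse 1.

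Markers of other cells in the same RNA were counted too. Among 14 oligodendrocyte markers only *Mobp*, a myelin gene, was called; it fell from 925 and 893 TPM in the WT mice to 471 and 482 TPM in the mutant mice (log2 fold change −0.93, adjusted p = 0.0133), a call kept in 13 of 19 alternatives. It was lost without WT mouse 1 (−0.90, adjusted p = 0.0694), without WT mouse 2 (−0.95, adjusted p = 0.0711), without a filter on low TPM, with eBayes without trend, with the length and GC correction and from coverage per gigabase. *Mbp*, the most abundant marker, overlapped (10521 to 12577 TPM), and the list's median was 0.06. No gene was called among 14 granule cell, 9 inhibitory interneuron, 8 oligodendrocyte precursor, 10 microglia, 10 endothelial and 4 choroid plexus and ependyma markers that were tested, where 3, 2, 0, 1, 3 and 2 genes had an unadjusted p under 0.05. Their medians were 0.01, −0.24, −0.03, 0.05, −0.06 and 0.29. The most abundant genes of these lists were *Calb2* (0.19), *Gad1* (−0.58), *Olig1* (−0.08), *C1qb* (0.12), *Ly6c1* (0.03) and *Rarres2* (0.01), with the log2 fold change in brackets, and *Pcp4* (−0.16) among Purkinje markers. With each library left out *Calb2* ran from 0.02 to 0.37, *Gad1* from −0.80 to −0.37, *Olig1* from −0.35 to 0.20, *Ly6c1* from −0.19 to 0.26, *Rarres2* from −0.14 to 0.15 and *Pcp4* from −0.85 without WT mouse 2 to 0.53 without WT mouse 1, and *C1qb* stayed between 0.10 and 0.13.

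Finally, the genes whose values over the 4 libraries were most like those of *Aqp4* were sought among 8737 other genes whose mean TPM reached 10. Likeness was the Euclidean distance between centred log2(TPM + 1) values, so these genes are a description with no test. The nearest was *Ccnd1*, which encodes cyclin D1 (distance 0.12), with 5.23 and 6.96 TPM in the WT mice and 15.0 and 13.9 TPM in the mutant mice. It was followed by *Galk1* (0.26), *Tnfrsf12a* (0.30), *Tle5* (0.34) and *Car4* (0.38), which encode galactokinase, the TWEAK receptor, a Groucho family corepressor and a carbonic anhydrase. Among the other members, *Kcnj10* (0.76) and *Hopx* (0.92) were nearest to *Aqp4* and *Gdf10* (2.37) was farthest.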

How the data were processed

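Bulk RNA-seq was analysed from 2 WT and 2 *Kdm3b*+/- mice, grouped by the genotype in the sample labels. The authors trimmed reads, aligned them with STAR and estimated abundance with StringTie; versions, genome build and annotation are not given in the sources used here. Deposited TPM values carry the authors' scaling for length and library total, deposited FPKM values that for length and mapped fragments, and the deposited coverage, a signal, is the unscaled mean depth over exons. Of 24532 identifiers, 24462 had a symbol in RefSeq of GRCm38.p6, and the starts of most members matched it. Entries of the 220 repeated identifiers were summed. Depth was computed as the most frequent ratio of coverage to FPKM; TPM carries no counts, so no counting intervals were given. Values are per gene and not per transcript, and *Aqp4* has 9, *Slc1a2* 4, *Hopx* 3 and *Gfap* 2 curated RefSeq transcripts.

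Log2(TPM + 1) of the 13652 genes whose mean TPM reached 1 was compared by limma version 3.58.1 under R version 4.3.3, using trended eBayes and Benjamini-Hochberg adjustment over all of them; robust fits used statmod version 1.5.0. The study itself tested counts, which are not in the tables used here. The fit was also run on simulated data with independent noise for each gene and library. Such data hold no deviations shared across a library, so the run cannot show how the fit behaves with them. Python version 3.11.15, pandas version 2.3.3, NumPy version 2.4.6 and Matplotlib version 3.10.9 made tables and figures. Named genes were all members, the called, most abundant, highest and lowest genes of each glial list, and the called and most abundant genes of the other lists. The results of 2 listed genes are counted with their lists and not reported here by themselves. The members and lists were chosen with earlier results of these data known. Alternatives were a pseudocount of 0.1, FPKM, no filter, a mean TPM of 5, median-ratio and quantile scaling, removal of the 20 highest genes, 1 entry per identifier, eBayes without trend or robust, a replicate block, loess correction for length and GC content (found for 12904 genes, 94.5%), the adjusted p alone, coverage per gigabase, and each library left out. Of these, the adjusted p alone cannot lose a call for any gene. With 2 mice per group the p-values rest on a spread shared across genes.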

Additional observations from a re-analysis of the deposited data

How the results depend on the processing

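With 19 alternatives each, *Kcnj10*, *Hopx*, *Slc1a3*, *Gja1* and *Glul* kept their sign and stayed uncalled, and *Aqp4* and *Gdf10* kept their sign. The number of members called higher was 0 in place of 1 without a filter on low TPM, with eBayes without trend and from coverage per gigabase (chosen after seeing the data), and between 0 and 1 with each library left out. The number called lower was 1 with the replicate block and between 0 and 1 with each library left out, *Gdf10* being the gene (adjusted p = 0.0109 with the block, and 0.129 and not called with the block and the length and GC correction together). The number of all genes called, 63, became 39 with FPKM, 1 without the filter, 37 with eBayes without trend, 600 with the replicate block (43 with the block and the length and GC correction together), 14 from coverage per gigabase, and between 21 and 188 with each library left out. Of the 63 genes, 16 were higher and 47 lower, and with median-ratio scaling these were 23 and 38. *Gfap* changed sign to 0.0659 with the length and GC correction, with or without the replicate block, and ran from −0.44 to 0.28 with each library left out. *Slc1a2* ran from −0.0041 to 0.20 and *S100b* from −0.40 to 0.18. The cause of these changes was not tested. Same-numbered mice are different animals, and the labels do not say whether they shared a litter or a batch, so a pairing is not known. The correlation across genes of their distances to the mean of the group was 0.121, or 0.0204 after the length and GC correction. The block changed no call among members but that of *Gdf10*. With a library left out, the lone library of its group is assumed to vary like the other group. Depth was between 4.92 and 6.69 gigabases, and 2 mice per group set the precision.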
